A study of Macaca mulatta with 10 samples.

Results

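The genes described here are 8 receptors and ligands that direct the movement of T cells between blood, lymphoid organs and tissues: the chemokine receptors CCR7, CCR4, CCR6, CXCR3, CXCR4 and CXCR5, the sphingosine 1-phosphate receptor S1PR1, and SELPLG, which encodes the selectin ligand PSGL-1. They were taken by gene symbol, and all 8 were among the 26484 genes of the count table. Their transcripts were measured in Tr1 cells, regulatory CD4+ lymphocytes that make IL-10, sorted by flow cytometry as CD4+CD49b+LAG3+ cells from the blood of rhesus macaques (monkeys) that had received allogeneic islets. Cohort B (5 monkeys, no ADL infusion) and Cohort C (5 monkeys, infused with apoptotic donor leukocytes, ADLs, which are donor cells fixed with ethylcarbodiimide) gave 1 library per monkey. Monkeys of both cohorts were made diabetic with streptozotocin, were matched with their donor at one MHC class II DRB allele, and received the same short course of an antagonistic anti-CD40 antibody (2C10R4), rapamycin, an anti-IL-6 receptor antibody (tocilizumab) and soluble TNF receptor (etanercept). The labels place sampling at rejection in Cohort B and at the end of the study, day 365, in Cohort C, so that rejection, the day of sampling and ADLs cannot be told apart in a comparison of the cohorts, and the study's own records differ from the labels on this for monkeys 13EP12, 13EP8 and 15CP1. Blood cells had been frozen, thawed and rested overnight before the sort. The comparison of Cohort C with Cohort B asks whether Tr1 cells that arose with ADLs carried other transcripts than those that arose without.

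Chemokine receptors are G protein-coupled receptors that turn a gradient of a chemokine into directed movement and into firm arrest through integrins. CCR7 and S1PR1 pull a lymphocyte in opposite directions, since CCR7 takes it into lymph nodes along CCL19 and CCL21, while S1PR1 takes it out again toward the sphingosine 1-phosphate of blood and lymph. CCR4, CCR6 and CXCR3 mark T cells that can enter skin, mucosa and inflamed tissue, CXCR5 leads to B cell follicles, and PSGL-1 lets a cell roll on selectins.

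Of the 10 libraries 4 carried most reads on these genes, from 85.4% of the counts of CCR4 to 100% of those of S1PR1, CCR6 and CXCR3. Total counts ran from 6076 to 1392157 in Cohort B and from 66485 to 5895609 in Cohort C. At least 6 of 8 housekeeping genes had counts in 2 monkeys of each cohort, 13EP12 and 13EP8 in Cohort B and 13EP5 and 15CP1 in Cohort C, which are called well covered here. In the other 6 libraries (14HP26, 14HP31 and 15CP6 of Cohort B, 14HP33, 14HP24 and 15CP4 of Cohort C) 27 of 48 housekeeping values were 0, against 2 of 32 in the well covered libraries. Levels are given in CPM (counts brought to a common library total with TMM), and a level of 3 counts, the smallest taken as measurable, equaled 0.623 CPM in 15CP1 and 118.7 CPM in 14HP31. CPM levels of 14HP33 depend on its TMM factor of 0.0725, without which they are lower by that factor, since this library had 968423 counts in all. All 11 T cell and sort markers, CD4 among them, had counts in 13EP12, 13EP5 and 15CP1, whereas LAG3, a gene of the sort itself, was at 0 in 13EP8 and in all 6 other libraries. LAG3 had only 10, 16 and 12 counts in 13EP12, 13EP5 and 15CP1, and ITGA2, which encodes CD49b, had 25, 2, 4 and 37 in 13EP12, 13EP8, 13EP5 and 15CP1. Transcripts of other blood cells were present beside those of T cells. Of 7 monocyte markers, 4 to 7 had counts in each well covered library, with sums of 1185 to 1222 CPM in Cohort B and 149 to 1338 CPM in Cohort C, and 6 libraries held more than 3 counts of them. Markers of CD8 T and NK cells passed 3 counts in 5 libraries, platelet markers in 4 and erythroid markers in 3, and the part of these cells in the levels below was not tested. In these bulk libraries, fewer cells that express a gene and less of its RNA per cell cannot be told apart.

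CXCR4, the receptor of CXCL12, which holds cells in bone marrow and other tissues, had the highest listed level per length of the 8 transcripts. S1PR1 and CCR7 followed in that order in each of the 4 well covered libraries. On the FPKM scale (fragments scaled to exon length and mapped reads), which allows genes of 1 library to be ordered, CXCR4 stood at 130.1 in 13EP12, 151 in 13EP8, 891 in 13EP5 and 129.9 in 15CP1. S1PR1 stood at 92.7, 99.0, 844 and 83.5 FPKM in the same monkeys, and CCR7 at 46.3, 26.0, 613 and 49.4 FPKM. The ratio of CXCR4 to S1PR1 was narrow, from 1.06 in 13EP5 to 1.56 in 15CP1, while that of S1PR1 to CCR7 ran from 1.38 in 13EP5 to 3.81 in 13EP8. Macaque reads were placed on the human genome, and differences between genes in how well their reads align were not tested. The order of genes, and the narrow lead of CXCR4 over S1PR1 above all, is given with that limit. Among the 23 chemokine receptor genes that the FPKM table lists, CXCR4 ranked first and CCR7 second in all 4 libraries. CXCR4 exceeded between 91.9% and 95.3% of the genes listed above 0 in these libraries, S1PR1 between 88.6% and 93.6%, and CCR7 between 67.8% and 91.3%.

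**Figure D1:**
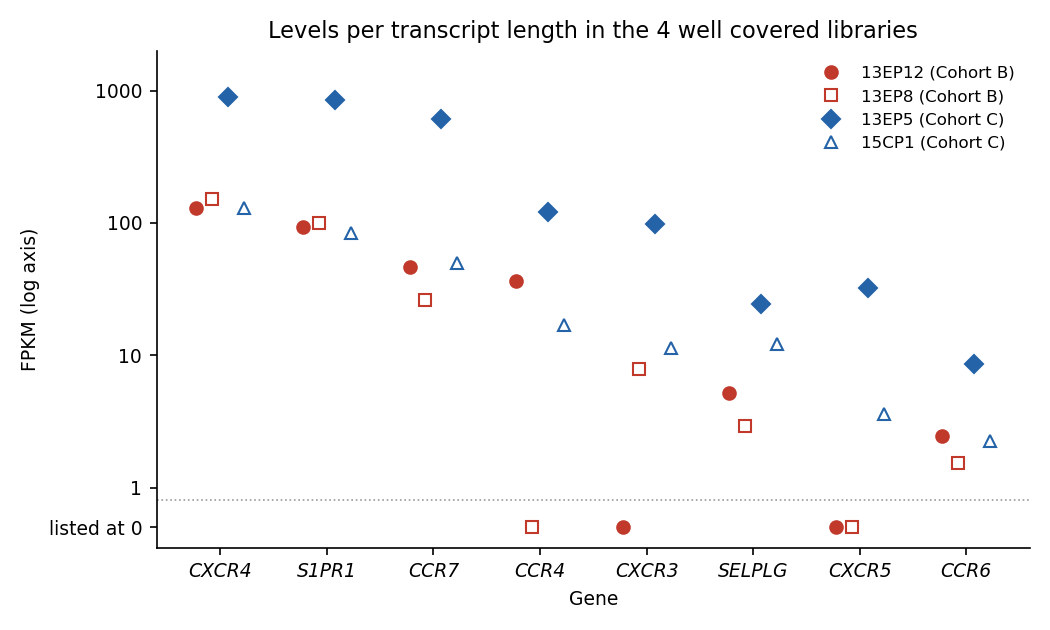
FPKM of the 8 genes (log axis, with values listed at 0 drawn below the dotted line) in the 4 well covered libraries, 2 of Cohort B in red and 2 of Cohort C in blue. CXCR4, S1PR1 and CCR7 lead in each library, from 26.0 FPKM for CCR7 in 13EP8 to 891 for CXCR4 in 13EP5.

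The remaining genes had lower levels per length and no common order. CCR4 was listed at 36.2, 122 and 16.9 FPKM in 13EP12, 13EP5 and 15CP1, CXCR3 at 7.90, 97.8 and 11.4 in 13EP8, 13EP5 and 15CP1, and SELPLG at 5.15, 2.92, 24.5 and 12.2 in 13EP12, 13EP8, 13EP5 and 15CP1. CXCR5 had 32.0 and 3.59 FPKM in 13EP5 and 15CP1. CCR6, the receptor of CCL20 found on Th17 cells and part of the regulatory T cells, was the lowest value above 0 in each of the 4 libraries, at 2.44, 1.54, 8.58 and 2.25 FPKM, which put CXCR4 between 53.4 and 103.8 times above it. All 8 genes had their highest FPKM among the 4 well covered libraries in monkey 13EP5. In CPM this monkey was not the highest of the 4 for CXCR4, CCR4, CCR6 and SELPLG. For CCR7, S1PR1, CXCR3 and CXCR5 its lead was smaller in CPM than in FPKM. FPKM was therefore used only for the order within a library. FPKM also listed CCR4 at 0 in 13EP8 and 14HP24, where it had 51 and 17 counts, and SELPLG at 0 in 15CP6, where it had 29. These were 3 of the 35 values of the 8 genes with more than 3 counts (8.57%), beside 22.3% of such values over all genes.

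None of the 8 genes differed between Cohort C and Cohort B beyond the spread between monkeys and their libraries, which differed in coverage. With edgeR's quasi-likelihood test 0 of the 8 met the filter of the study, a raw p under 0.01 and a change of 1.5-fold or more, which 911 of the 14168 genes tested met (6.43%), 152 of them higher (1.07%) and 759 lower (5.36%) in Cohort C. With edgeR's size factors of the RLE kind in place of TMM, 1525 genes passed, 515 higher and 1010 lower, and the count lay between 76, without 13EP5, and 597, without 14HP26, when any 1 of 13EP8, 14HP26, 15CP6, 13EP5, 14HP33, 14HP24 and 15CP1 was left out. At an adjusted p under 0.05, edgeR found 0 of the 8 and 0 genes in all (0%) and DESeq2 found 2 genes, and at an unadjusted p under 0.05 edgeR found 0 of the 8 and 20.6% of all genes. The log2 fold changes of the 8 were positive for 5 and negative for 3, with library size alone making that of S1PR1 negative, beside 53.5% positive over all genes. They ran from -2.19 to 4.42, with standard errors of 1.78 to 2.29 and adjusted p values of 0.251 to 1.0, and their median was 0.27 beside 0.16 over all genes. The median over all genes was -0.030 with RLE size factors and -0.11 with library size only, and 4 of the 8 lay above it with TMM and 5 with either of the others.

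When log2(CPM + 1) was compared by two-sided exact permutation, with 252 ways to assign the libraries, the p values of the 8 genes ran from 0.167 to 1, with an adjusted p of 1 throughout, where 0.00794 is the smallest that the design allows. Of all genes 0.24% had an unadjusted p under 0.05 in that test, and in 0.0141% the cohorts did not overlap, which was so for 0 of the 8. The intervals were wide. With SDs of up to 4.50 on the log2 scale, the 95% intervals of the log2 fold changes together reached from -6.27 to 8.91, so differences of many-fold could not be detected at this depth and number of monkeys.

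**Figure D2:**
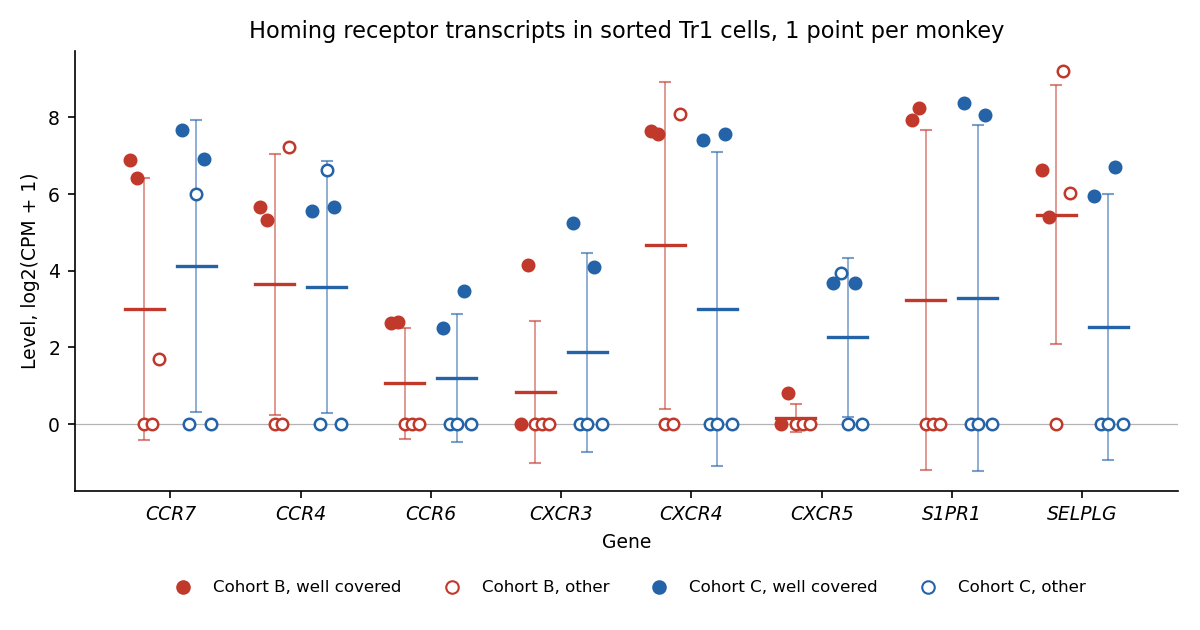
Level of each gene as log2(CPM + 1) with 1 point per monkey, Cohort B in red and Cohort C in blue, filled for the 4 well covered libraries and open for the other 6, with horizontal lines for the mean and bars for the SD (n = 5 monkeys per cohort). Filled points of both cohorts lie close together for CXCR4, S1PR1 and CCR4, and 40 of the 48 open points lie at 0.

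CCR7 had counts in 3 monkeys of each cohort. It stood at 118 CPM in 13EP12, 84.1 in 13EP8, 2.21 in 15CP6 and 0 in 14HP26 and 14HP31 of Cohort B, and at 203 CPM in 13EP5, 63.5 in 14HP24, 120.4 in 15CP1 and 0 in 14HP33 and 15CP4 of Cohort C. The cohorts overlapped over most of their range. In CPM the 2 well covered monkeys of Cohort C (650 and 580 counts) lay above the 2 of Cohort B (136 and 110 counts). The narrow gap between 15CP1 and 13EP12 rests on their TMM factors of 0.818 and 0.968, and by library size alone 15CP1 lies below 13EP12. On the log2(CPM + 1) scale the level was 3.00 ± 3.41 (SD, n = 5) in Cohort B and 4.12 ± 3.81 (SD, n = 5) in Cohort C (two-sided exact permutation test, p = 0.714). CCR7 had a log2 fold change of 0.88 (edgeR, adjusted p = 1.0, standard error 2.03), and of 0.046 without 13EP5.

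S1PR1, the egress receptor, had counts in the 4 well covered monkeys only. Its level was 241 CPM in 13EP12 (278 counts) and 300.5 in 13EP8 (393 counts) of Cohort B, and 331 CPM in 13EP5 (1063 counts) and 266 in 15CP1 (1282 counts) of Cohort C. The Cohort B values thus interleaved with those of Cohort C, and the other 3 monkeys of each cohort were at 0. S1PR1 had a log2 fold change of 0.13 (edgeR, adjusted p = 1.0, standard error 1.96) with an exact permutation p of 0.841, and it was negative without any 1 of 14HP26, 14HP31, 15CP6, 13EP5 or 15CP1, at -0.92 without 13EP5. Genes that act on S1PR1 did not pass the test either. KLF2, a transcription factor that switches S1PR1 on, stood at 115, 86.4 and 303 CPM in 13EP12, 13EP8 and 15CP6 of Cohort B and at 289.6 (13EP5), 171 (14HP33, 12.4 by library size alone), 127 (14HP24) and 218 (15CP1) CPM in Cohort C, with a log2 fold change of 0.65 (adjusted p = 1.0, edgeR). CD69, whose protein removes S1PR1 from the cell surface, had 369.7 and 149 CPM in 13EP12 and 13EP8 beside 247 and 213 in 13EP5 and 15CP1, with a log2 fold change of -0.33 (adjusted p = 1.0, edgeR). KLF2 was present in 15CP6 at 137 counts, where S1PR1 had 0.

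CXCR4 varied least of the 8 among the well covered monkeys. It stood at 199.6 CPM in 13EP12, 187 in 13EP8, 272 in 15CP6 and 0 in 14HP26 and 14HP31 of Cohort B, and at 168 CPM in 13EP5, 188 in 15CP1 and 0 in the other 3 of Cohort C. Its highest level was that of 15CP6, a library of 455470 counts in which 123 fell on CXCR4. The means were 4.66 ± 4.26 (SD, n = 5) in Cohort B and 2.99 ± 4.10 (SD, n = 5) in Cohort C on the log2(CPM + 1) scale (two-sided exact permutation test, p = 0.365). For CXCR4 the log2 fold change was -0.88 (edgeR, adjusted p = 1.0, standard error 1.98).

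Of the receptors for skin, mucosa and inflamed tissue, CCR4 was found in 6 libraries, CCR6 in 4 and CXCR3 in 3. CCR4, which binds CCL17 and CCL22 and is common on regulatory and Th2 cells, stood at 49.5 CPM in 13EP12, 39.0 in 13EP8, 148 in 15CP6 and 0 in 14HP26 and 14HP31 of Cohort B, and at 45.8 CPM in 13EP5, 98.1 in 14HP24, 49.2 in 15CP1 and 0 in 14HP33 and 15CP4 of Cohort C. Its 4 values in the well covered monkeys differed by at most 1.27 times, and both values above them came from libraries that were not well covered, with 67 counts in 15CP6 and 17 in 14HP24. The log2 fold change was -0.32 (edgeR, adjusted p = 1.0, standard error 2.04) and 0.70 without 15CP6. CCR6 had 6 and 7 counts in 13EP12 and 13EP8, or 5.21 and 5.35 CPM, and 15 and 49 counts in 13EP5 and 15CP1, or 4.68 and 10.2 CPM, and 0 elsewhere. Its highest value was that of 15CP1, and the other 3 lay within 1 CPM of each other. The log2 fold change was 0.41 (edgeR, adjusted p = 1.0, standard error 1.78), and it was negative, -0.64, without 15CP1.

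CXCR3, the receptor of the interferon-induced chemokines and a marker of Th1 cells, was found in 1 monkey of Cohort B and 2 of Cohort C. It had 22 counts in 13EP8 (16.8 CPM), 119 in 13EP5 (37.1 CPM) and 78 in 15CP1 (16.2 CPM). The other 7 libraries were at 0, and of these 13EP12 was deep enough to show levels from 2.60 CPM upward and 15CP6 from 6.64 CPM upward. The well covered monkeys of Cohort B thus differed from each other more than 13EP8 differed from 15CP1. For CXCR3 the log2 fold change was 1.47 (edgeR, adjusted p = 0.976, standard error 2.05) with an exact permutation p of 0.722. A single library set its size, since it was 6.76 without 13EP8 (unadjusted p = 0.0311, adjusted p = 0.187, edgeR) and 0.057 without 13EP5.

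CXCR5, which guides follicular helper T cells and B cells to CXCL13, had the largest log2 fold change of the 8 genes, 4.42 (standard error 2.29), and did not pass the test (edgeR's quasi-likelihood test, unadjusted p = 0.0537, adjusted p = 0.251). Its level was 0.765 CPM in 13EP8, from 1 count, and 0 in the other 4 monkeys of Cohort B, beside 11.8 CPM in 13EP5 (38 counts), 11.8 in 15CP1 (57 counts), 14.2 in 14HP33 from 1 count, and 0 in 14HP24 and 15CP4 of Cohort C. High values were thus seen only in Cohort C, but many zeros came from libraries too shallow to show 11.8 CPM. The 3-count level was 17.3 CPM in 14HP24 and 18.7 in 15CP4 of Cohort C. It was 17.6 CPM in 14HP26 and 118.7 in 14HP31 of Cohort B. In 13EP12, 13EP8 and 15CP6 of Cohort B it was 2.60, 2.29 and 6.64 CPM, below 11.8 CPM. However, 43.6% of the genes above the limit of 15CP6 were at 0 there, as given below. The value of 14HP33 rested on 1 count in a library whose 3-count level was 42.7 CPM, and was 1.03 CPM by library size alone. On the log2(CPM + 1) scale the means were 0.16 ± 0.37 (SD, n = 5) and 2.26 ± 2.06 (SD, n = 5) in Cohorts B and C (two-sided exact permutation test, p = 0.167, adjusted p = 1). Summed over the well covered libraries, 1 count in Cohort B stood against 95 in Cohort C, a ratio of 29.1 in CPM with a 95% interval of 5.10 to 1162 (exact, counting error only, without the spread between monkeys). The ratio was taken for CXCR5 alone, the gene with the largest log2 fold change in these same data, and is no test of the cohorts. The unadjusted p in edgeR's quasi-likelihood test was 0.0407 with RLE size factors, 0.0305 without 13EP8, 0.0454 without 14HP24 and 0.0468 without 15CP4, with adjusted p values of 0.179 to 0.256. In the other 19 of 23 alternatives it was 0.05 or more. DESeq2 and limma-voom each gave a log2 fold change of 1.95 (unadjusted p of 0.451 and 0.166) and limma on log2(FPKM + 1) gave 1.45 (0.255), with adjusted p values of 0.992 to 1.

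B cells also express CXCR5, and B cell markers were present in the same libraries. Of 6 such markers, 2 had counts in 13EP12, 4 in 13EP8, 4 in 13EP5 and 6 in 15CP1. Their summed level was 0 to 91.0 CPM in Cohort B and 0 to 94.8 CPM in Cohort C. In the well covered monkeys it was 55.5 and 91.0 CPM in Cohort B beside 41.2 and 94.8 CPM in Cohort C. MS4A1, which encodes CD20, had 43, 96, 0 and 199 counts in 13EP12, 13EP8, 13EP5 and 15CP1, and was at 0 in 13EP5, where CXCR5 had 38. BANK1 had 0, 17, 65 and 81 counts and PAX5 had 0, 2, 11 and 103 in the same monkeys. The part of B cells in the level of CXCR5 was not tested.

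SELPLG was the gene furthest toward Cohort B. It stood at 98.1 CPM in 13EP12, 41.3 in 13EP8, 594 in 14HP31, 64.2 in 15CP6 and 0 in 14HP26 of Cohort B, and at 60.5 CPM in 13EP5, 103 in 15CP1 and 0 in the other 3 of Cohort C. The highest value came from 15 counts in 14HP31, the library with 6076 counts in all, and the well covered monkeys of the cohorts interleaved. The means were 5.45 ± 3.38 (SD, n = 5) in Cohort B and 2.53 ± 3.47 (SD, n = 5) in Cohort C on the log2(CPM + 1) scale (two-sided exact permutation test, p = 0.270). For SELPLG the log2 fold change was -2.19 (edgeR, adjusted p = 0.799, standard error 2.08) and -0.60 without 14HP31. DESeq2 gave -3.91 with an unadjusted p of 0.0456 and limma-voom -3.14 with 0.0367, with adjusted p values of 1.0 in both, and in the other 22 of 24 alternatives the unadjusted p was 0.05 or more.

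Within the 4 well covered libraries, 2 of each cohort, the log2 fold changes of the abundant genes were small and more precise. For S1PR1 the value was -0.0032 (95% interval -1.05 to 1.04), for CXCR4 -0.27 (-1.41 to 0.86), for CCR7 0.55 (-0.81 to 1.90) and for SELPLG 0.073 (-1.69 to 1.83), in edgeR's quasi-likelihood test. CCR4 had -0.047 with an interval of -2.18 to 2.08, and the rare CCR6, CXCR3 and CXCR5 had 0.32 (-4.58 to 5.21), 1.51 (-2.83 to 5.86) and 4.61 (-1.56 to 10.78). These intervals leave room for about a doubling in either direction for S1PR1 and for far larger differences in the rare genes. Of the 8 genes 0 passed the study's filter, which 0.881% of 13274 genes passed, and 0 had an unadjusted p under 0.05, beside 5.26% of all genes. From lowest to highest, levels in these libraries differed by 1.19 times for CXCR4, 1.37 for S1PR1, 2.17 for CCR6, 2.41 for CCR7 and 2.50 for SELPLG. In CPM both monkeys of Cohort C lay above both of Cohort B for CCR7 and CXCR5, 2 of the 8 genes. Cohort C lay above Cohort B in this way in 32.9% of all genes, with 40.2% separated in either direction. For CCR7 the separation rests on the TMM factors and is lost by library size alone. An exact permutation test of 2 libraries against 2 cannot go below p = 0.333. For most of these monkeys, as named in the opening paragraph, the study's records differ from the labels on sampling. This subset is thus not given as a comparison of rejection with the end of the study.

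**Figure D3:**
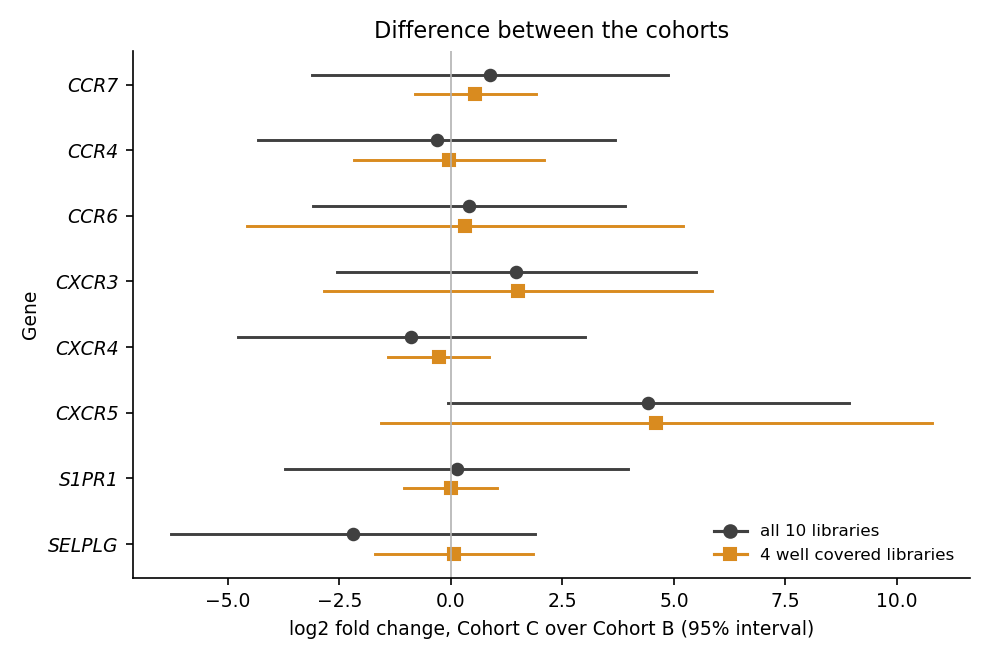
log2 fold change of each gene in Cohort C over Cohort B with its 95% interval, from all 10 libraries (dark circles) and from the 4 well covered ones (orange squares), in edgeR's quasi-likelihood test. All 16 intervals include 0, and those of S1PR1, CXCR4, CCR7 and SELPLG are narrower in the 4 libraries.

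Zeros in the other 6 libraries went beyond what their TMM-scaled totals allow for. The 3-count levels used here rest on the TMM factors, which were 4.23 in 14HP31, 2.41 in 15CP4 and 0.0725 in 14HP33. By library size alone the level is higher by that factor in 14HP31 and 15CP4, and lower in 14HP33. Whether the zeros go beyond library size alone was not tested. Of the 48 values of the 8 genes there, 40 were 0, 2 were 1 count and 6 were above 3 counts. In 25 of the 48 cases the lowest level of the gene in the well covered monkeys lay above the 3-count level of the library, and 19 of these 25 were 0. The same was frequent over all genes. Among the genes above that limit, 74.5% were at 0 in 14HP26, 86.1% in 14HP31, 72.6% in 14HP33 and 84.9% in 15CP4, where the homing genes were at 0 in 5 of 5, 2 of 2, 3 of 3 and 5 of 5 cases. In 14HP24 the share was 47.5% beside 3 of 5 (S1PR1, CXCR4 and SELPLG), and in 15CP6 it was 43.6% beside 1 of 5, S1PR1. A zero of CXCR4 or S1PR1 in these libraries is thus given as 0 counts and not as absence of the transcript.

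**Figure D4:**
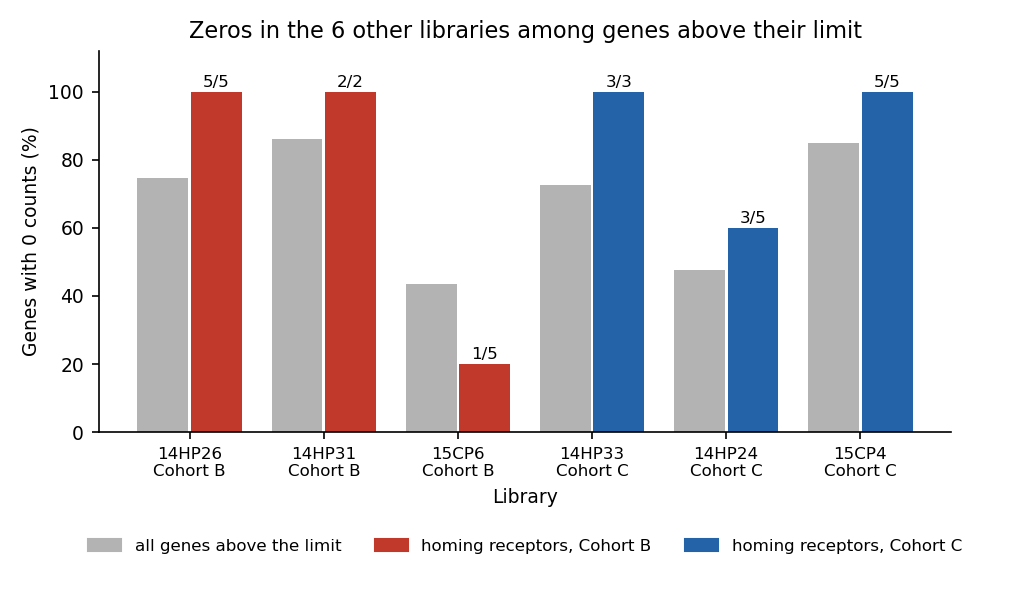
Percent of genes with 0 counts in each of the 6 other libraries, among genes whose lowest level in the well covered libraries was above the 3-count level of that library, for all genes (gray) and for the homing receptors (red Cohort B, blue Cohort C, with their number above). The bars for the receptors reach 100% in 4 libraries, where the gray bars lie between 72.6% and 86.1%, and 20% in 15CP6 beside 43.6%.

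The wider homing machinery was counted in 7 other lists with 89 genes. Of these 65 were tested, 36 had positive and 29 negative log2 fold changes, with a median of 0.19 beside 0.16 over all genes. At the study's filter 1 was higher (ACKR1) and 3 were lower in Cohort C (CXCL12, CX3CL1 and CD99), 4 of 65, beside 6.43% of all genes. After adjustment edgeR called 0 of the 65, and 12 (18.5%) had an unadjusted p under 0.05, beside 20.6% of all genes. Each of these 4 had its counts in a single library, with 44 counts of ACKR1, a decoy receptor that erythroid and endothelial cells make, in 14HP33, 162 of CXCL12 in 15CP6, 10 of CX3CL1 in 14HP26 and 13 of CD99 in 13EP12. Erythroid markers summed to 1325 CPM in 14HP33 (93 counts, 96.0 CPM by library size alone) and 416 CPM in 15CP6 and were at 0 in all 4 well covered libraries.

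Among 17 other chemokine receptors, 12 were tested, 7 with positive and 5 with negative log2 fold changes. CCR9, the receptor for the small intestine, had 69, 1 and 27 counts in 13EP12, 13EP8 and 14HP26 of Cohort B and 114 and 202 in 13EP5 and 15CP1 of Cohort C (log2 fold change -1.44, adjusted p = 0.987, edgeR). CX3CR1 had 99, 22, 9 and 169 counts in 13EP12, 13EP8, 13EP5 and 15CP1 (-1.38, adjusted p = 0.995, edgeR). In Cohort B, both of these genes differed between 13EP12 and 13EP8 by a larger factor than CCR7 did.

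Few chemokine genes had counts. Of 19 ligand genes, 10 had no count in any library, among them CCL5, CCL3 and CCL4, beside 9159 of the 26484 genes of the count table. Reads of macaque cells were placed on the human genome, and these zeros are not given as absence of the transcripts. Of the 19 genes 4 were tested, all with negative log2 fold changes. CXCL8, a neutrophil chemokine made by monocytes and other cells, had the most counts, with 196, 648, 14 and 1682 counts in 13EP12, 13EP8, 13EP5 and 15CP1 (log2 fold change -0.91, adjusted p = 1.0, edgeR). The low value of 13EP5 went with its monocyte marker sum, 149 CPM beside 1185 to 1338 CPM in the other 3 well covered libraries. In 15CP6 and 14HP24, however, monocyte markers summed to 854 and 439 CPM while CXCL8 had 0 counts. The part of monocytes was not tested. CXCL9, a ligand of CXCR3, had 20 counts in 15CP6 and 1 in 15CP1.

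Adhesion genes had counts in up to 8 libraries. Of 13 selectins, integrins and related genes, 12 were tested, 10 with positive and 2 with negative log2 fold changes and a median of 0.78. ITGA4, the alpha chain that VLA-4 and the gut homing integrin share, had counts in 8 libraries and 684 to 939 CPM in the well covered ones (log2 fold change 1.10, standard error 1.88, adjusted p = 1.0, edgeR), and CD44, which binds hyaluronan, had 528 to 687 CPM (0.23, standard error 1.88, adjusted p = 1.0, edgeR). SPN, which encodes CD43, had 32.9 to 128 CPM there (1.93, standard error 2.10, adjusted p = 0.885, edgeR). ITGA4 and CD44 thus varied no more between the well covered monkeys than S1PR1 did.

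The enzymes that make PSGL-1 able to bind selectins gave 7 tested genes of 8, with 4 positive and 3 negative log2 fold changes. ST3GAL4, a sialyltransferase, had 36, 18 and 72 counts in 13EP12, 13EP8 and 15CP6 and 116, 11 and 114 in 13EP5, 14HP24 and 15CP1 (log2 fold change -0.75, adjusted p = 1.0, edgeR). B4GALT1, a galactosyltransferase, stood at 74.9 to 131 CPM in the well covered libraries (0.46, adjusted p = 1.0, edgeR). TPST1, which adds sulfate to tyrosines, had 54 counts in 13EP8, 1 in 15CP6, 12 in 15CP1 and 26 in 15CP4 (1.74, adjusted p = 0.933, edgeR).

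Of 10 genes of sphingosine 1-phosphate and egress, 9 were tested, 4 positive and 5 negative, with KLF2 and CD69 as given above and SGPL1, the lyase that breaks down sphingosine 1-phosphate, at 52.1 to 158 CPM in the well covered libraries (log2 fold change -0.10, adjusted p = 1.0, edgeR). Among other homing receptors, 4 of 5 were tested, 3 positive and 1 negative. GPR183, an oxysterol receptor that places cells within lymphoid tissue, stood at 236 to 459 CPM (0.45, adjusted p = 1.0, edgeR), whereas GPR15, which leads to the colon, had 12, 8, 8 and 171 counts in 13EP12, 13EP8, 13EP5 and 15CP1 (1.05, adjusted p = 1.0, edgeR) and LTB4R, a leukotriene receptor, had 48 and 8 counts in 13EP8 and 15CP6 of Cohort B and 8 and 47 in 13EP5 and 15CP1 of Cohort C (-1.95, adjusted p = 0.864, edgeR). The 17 genes that carry the signal of these receptors were all tested, with 8 positive and 9 negative log2 fold changes and a median of -0.048. RHOA stood at 561 to 697 CPM, RAC2 at 165 to 346 and DOCK2, which activates RAC, at 369 to 661 CPM in the well covered libraries, with log2 fold changes of -0.11, -0.10 and -0.48 and an adjusted p of 1.0 each in edgeR's quasi-likelihood test.

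**Figure D5:**
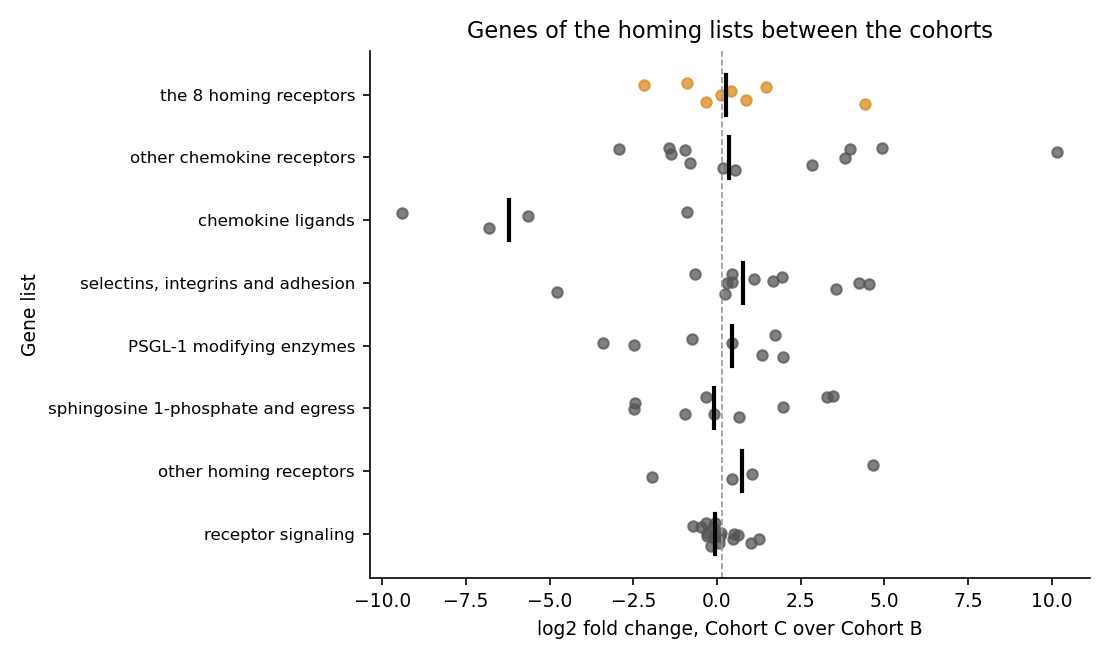
log2 fold change in Cohort C over Cohort B for the genes tested in each list, 1 point per gene, with a black bar for the median of the list and a dashed line for the median of all genes, 0.16. The 17 signaling genes lie near 0, and the chemokine ligands, with 4 genes, have the lowest median, -6.22.

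Other genes followed the pattern of the 8 across libraries, and how many did so differed between them. Over the 10 libraries, the highest Pearson correlations of log2(CPM + 1) with S1PR1 were those of TP53INP2, EYA3 and RNF6, each with r = 1.0, and 1967 of 8254 candidate genes passed 0.9. For CXCR4 they were RALGAPB, MAP4 and PAFAH1B1 (955 of 5203 past 0.9), for CCR6 TNFRSF10A, CTAGE1 and AURKB (1938 of 8254), for CCR4 HIST1H3D, NDRG1 and IFRD1 (592 of 2858) and for CCR7 GTF2A1, ARPC1B and FKBP15 (327 of 2858). SELPLG and CXCR5 had few such partners. ARHGEF3 (r = 0.989), AMPD2 and CCNH were nearest to SELPLG, with 18 of 2858 past 0.9, and COG6 (r = 0.986), EIF1AD and IGSF8 to CXCR5, with 31 of 8254. All these points share their libraries and depth, with the zeros of the other 6 libraries among them. CXCR3, with counts in 3 libraries, was left out of this count.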

How the data were processed

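RNA of sorted Tr1 cells (stranded Clontech Pico libraries, 50 bp paired ends) was analysed from 10 monkeys, 1 library each. HISAT2 2.0.2 was used by the authors to place reads on human hg38, and they deposited raw counts per gene, whose counting options, strand included, are not given in the sources used here. The authors also deposited FPKM values from Cuffdiff 2.2.1, which were used for the order of genes within a library. Cohorts were taken from the sample titles. Here, genes whose counts over the libraries reached 10 in sum were tested with edgeR 4.0.16 in R 4.3.3 (TMM, quasi-likelihood test, Benjamini-Hochberg adjustment over all 14168 genes), and single genes by exact permutation of log2(CPM + 1) with a pseudocount of 1. The standard error is the log2 fold change divided by the root of its test statistic. Alternatives were DESeq2 1.42.0, limma 3.58.1 with voom or on log2(FPKM + 1), other scalings and filters, a block, a covariate for a suffix that some library names carry, and each library left out. Nothing in the sources used here says more of how replicates were made than 1 monkey each. With 1 library per monkey, p-values measure the spread between monkeys and the differences in library coverage together. The 95% intervals of log2 fold changes include the spread between monkeys and their libraries. The limits of 3 counts and the interval of the pooled CXCR5 ratio cover counting error only.

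The members, the gene lists and the tests were chosen with earlier results of these data known. Named were all 8 genes, from every other list the genes called and the 3 with counts in the most libraries, markers of cell types, and for each of the 8 with counts in at least 4 libraries the 3 genes of highest correlation. A gene that this rule names is not reported here. The symbols GRK2 and GRK3 were read under their older names ADRBK1 and ADRBK2. The replicate numbers of the labels name different monkeys in each cohort. Sequences of the genes and coordinates were not used here.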

Additional observations from a re-analysis of the deposited data

Results flagged for a closer look

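In 2 of 16 groups of 5 monkeys (8 genes in 2 cohorts), 1 monkey lay apart from the rest on the log2(CPM + 1) scale. Both were monkey 13EP8 in Cohort B, for CXCR3 at 4.16 (22 counts) and for CXCR5 at 0.819 (1 count), with a gap of the whole range, 1, because the other 4 monkeys of Cohort B were at 0. A single library with any count among 4 zeros always gives that gap, so the rate of about 1 in 20 groups that chance gives for spread values does not apply, and the value of CXCR5 rests on 1 count.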

How the results depend on the processing

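In 188 log2 fold changes of the 8 genes under other settings, 173 had the direction given above, 15 were reversed and 0 passed an adjusted p of 0.05; the cause of the reversals was not tested. CCR4 was 0.0027 with limma on log2(FPKM + 1), with or without a filter on low values, and ran from -0.98 to 0.70 with 1 library left out. CCR6 was -0.42 with DESeq2 and -0.18 with the replicate block, and ran from -0.64 to 0.88. S1PR1 was -0.014 with library size only, -0.44 with limma-voom and -0.0032 in the 4 well covered libraries, and ran from -0.92 to 0.83. SELPLG was 0.073 in those 4 libraries. Of 128 differences in the mean log2 level, 16 were reversed, and 0 passed after adjustment. CCR4 was 0.0027 on log2(FPKM + 1), and with 1 library left out CCR4 ran from -0.98 to 0.82, CCR6 from -0.43 to 0.54 and S1PR1 from -1.22 to 1.31. That of CXCR5 had an exact permutation p of 0.0476, unadjusted, without 14HP24 or 15CP4. With filterByExpr, CCR6, CXCR3, CXCR5 and S1PR1 were not tested.

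The 911 genes past the study's filter became 1525 with RLE size factors, 341 with edgeR's exact test, 69 with DESeq2, 67 with limma-voom, 10 of 3414 with filterByExpr, 98 with the name suffix as a covariate and 117 in the well covered libraries, and 2, 1 and 3 with limma on log2(FPKM + 1), the same without a filter and log2(FPKM + 0.1). With 1 library left out they ran from 76 to 695. At an adjusted p under 0.05, DESeq2 called 2 genes and the 4 well covered libraries 1, and with 1 library left out the count was 0 to 1. In the 7 other lists, genes with positive values were 14 with filterByExpr and 20 to 45 with 1 library left out, those with negative values were 15 with filterByExpr and 14, 15 and 15 in the limma fits on FPKM in the order above, and calls were 2 with edgeR's exact test, 0 with DESeq2, limma-voom, filterByExpr, the suffix, the well covered libraries and limma on FPKM, and 1 to 3 with 1 library left out.

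The replicate numbers were not taken as pairs, since they name different monkeys in each cohort. Correlations of same-numbered monkeys ran from -0.43 to 0.38, and with libraries of such unequal depth they cannot show whether monkeys were paired. With the replicate block 0 genes passed the study's filter, in the 7 lists and in all. In the 6 libraries that were not well covered, 3 counts equal 6.64 to 118.7 CPM, and in 14HP33 the value of 42.7 CPM rests on its TMM factor, with 3.10 CPM by library size alone. The values of 118.7 CPM in 14HP31 and 18.7 CPM in 15CP4 also rest on their TMM factors, and are higher by library size alone.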
